A study of Rattus norvegicus with 2 samples.

Results

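Other Ensembl RNA is the annotation class that holds what Ensembl lists outside its protein coding and long non-coding sets, among it small structured RNAs, microRNA precursors and pseudogenes. Its members were all transcripts that the authors' transcript table gives this source, 2161 of 20367 transcripts, from 2104 genes. They were then sorted by the pattern of their symbol, with no use of their values. The cells were RBL-2H3, a rat basophilic leukaemia line used as a mast cell model that degranulates when antigen bridges IgE on its surface. The saline group was given normal saline, and the treated group PM2.5, a fine airborne particulate, plus IgE and DNP-HSA, the antigen that this IgE binds. Each group had 1 library made from total RNA. Neither the dose unit, the time nor any IgE and antigen given to the saline cells is stated in the labels. Poly(A) selection and ribosomal RNA depletion are not stated either. Read shares below are thus those of the libraries and may differ from those in the cells. With 1 library per group there was no replicate check and no test, so each difference below is between these libraries, and each interval is an exact 95% interval that covers counting error only.

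Small structured RNAs work as parts of ribonucleoprotein particles. The 7SL RNA is the scaffold of the signal recognition particle, which brings ribosomes making secreted proteins to the endoplasmic reticulum; the RNA of RNase MRP takes part in ribosomal RNA maturation; and Terc is the template of telomerase. MicroRNA hairpins are cut by Drosha and Dicer into short strands whose bases 2 to 8, the seed, pair with target messages. Pseudogenes are copies of genes, often of messages with high expression, that have usually lost their coding function.

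The microRNA precursors are the members whose sequence and identity are known best. The mature strands below come from the loci with the most reads and from some of the groups compared further down. All are RefSeq sequences placed on GRCr8, printed 5′ to 3′ with the seed in capitals; they were matched by symbol or synonym for 103 of the 109 microRNA transcripts.
rno-miR-3064-3p: uUUGCCACacugcaacaccuuaca
rno-miR-142-5p: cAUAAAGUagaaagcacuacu
rno-miR-142-3p: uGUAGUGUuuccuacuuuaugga
rno-miR-21-5p: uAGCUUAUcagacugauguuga
rno-miR-7a-5p: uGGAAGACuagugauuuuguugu
rno-miR-27b-3p: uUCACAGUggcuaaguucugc
rno-miR-27a-3p: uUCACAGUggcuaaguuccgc
rno-miR-18a-5p: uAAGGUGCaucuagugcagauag
rno-miR-19a-3p: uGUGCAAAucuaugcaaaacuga
rno-miR-20a-5p: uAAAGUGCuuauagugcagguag

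The reads of these libraries were counted over annotated transcripts, not over mature strands, so what was measured is the hairpin or a longer RNA that contains it. The RefSeq hairpins of the microRNA members were 59 to 141 nt long, with a median of 93 nt. The 2 precursors with at least 20 reads follow with their mature strands in capitals. Mir142 lies at chr10:73055104-73055190 on the plus strand and Mir3064 at chr10:92225518-92225584 on the minus strand of GRCr8.
Mir142: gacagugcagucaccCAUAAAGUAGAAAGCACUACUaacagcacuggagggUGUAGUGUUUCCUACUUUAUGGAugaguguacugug
Mir3064: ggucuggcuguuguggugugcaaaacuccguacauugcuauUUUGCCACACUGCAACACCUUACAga

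The saline library held 7279671 reads over all listed transcripts and the treated library 3964955, a ratio of 1.84, so a transcript at the same level in both had fewer reads in the treated library. Levels are therefore given as normalised counts, which divide the reads by the authors' size factor, and a fold is the log2 of the treated over the saline normalised count after adding 1 to each. Of 14 mast cell and basophil markers 12 were listed, among them Kit, the stem cell factor receptor, with 11946 reads in the saline and 5440 in the treated library, and Fcer1a, the IgE-binding chain of the IgE receptor, with 574 and 408. Cpa3, a mast cell protease, was higher in the treated library by 1.74 on the log2 scale and Hdc, which makes histamine, was lower at -1.07. Of other mast cell protease genes, Mcpt8l3 had 25 and 0 reads, Mcpt8l2 had 17 and 10, and Mcpt1 was higher in the treated library by 1.11. Mcpt2 and Tpsab1 were not listed.

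The class held a larger part of the reads in the treated library. It had 917882 reads in saline, 12.6% of the library (interval 12.58 to 12.63), and 605147 in treated, 15.3% (15.23 to 15.30), a log2 ratio of shares of 0.28. Protein coding transcripts held 84.0% and 81.4%, and the Ensembl long non-coding class, which is much smaller, went from 0.308% to 0.459%, while the predicted long non-coding transcripts went from 3.09% to 2.88%. The intervals of the class share did not overlap, but the intervals hold no spread between cultures. In bulk RNA, fewer cells that hold an RNA and less of it per cell cannot be told apart.

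Most of the class's reads carried names that say nothing of the RNA. Clone names, which Ensembl takes from the sequence accession on which a gene without a symbol lies, were 1872 of the members and held 10.3% of saline and 12.9% of treated reads, which is 81.9% and 84.2% of the class. The 1198 names that begin with AABR held 8.03% and 10.5%, and the 442 that begin with AC held 2.17% and 2.24%. The rest of the clone names, with the prefixes Rn50 and Rn60 or of other accessions, held under 0.1% each. The AABR names gained 2.44 percentage points, where the class as a whole gained 2.65.

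The groups with a named kind of RNA were small or even. Rn7sl1, the only 7S RNA listed, held 1.11% of saline and 1.10% of treated reads, and the 105 transcripts with other gene symbols 0.829% and 0.828%. LOC numbers, provisional gene names, had 38 members with 0.312% and 0.448%, and the 4 RGD numbers had 0.0201% and 0.0253%. The 109 microRNA transcripts held 0.00396% (0.00351 to 0.00444) and 0.00242% (0.00196 to 0.00296). The 28 copies of 5S_rRNA had 37 and 19 reads, and the 4 transcripts with snoRNA symbols 4 and 3. The authors' table lists no member of this class with a mitochondrial name, a spliceosomal U RNA name, a Y RNA name or no symbol. It lists no member with 0 reads in both libraries, so an RNA that is not listed has no value here. A RefSeq gene was matched by symbol or synonym for 239 members, 11.1%, and these held 15.7% of the class's saline and 12.9% of its treated reads. Not all of these are small RNA or pseudogenes: RefSeq types 73 transcripts with other symbols, 8 with LOC numbers and 8 with clone names as protein coding.

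**Figure D1:**
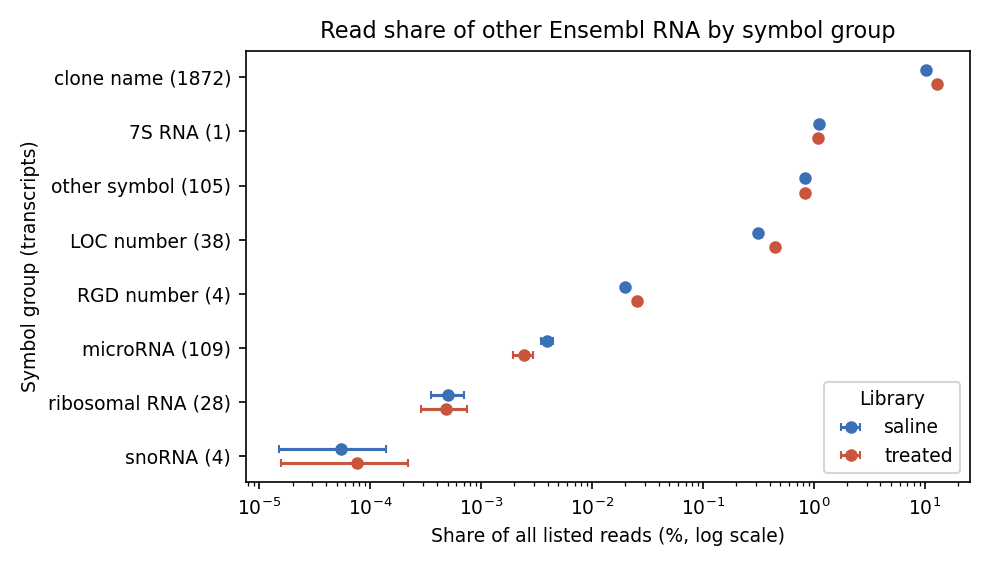
Share of all listed reads (%, log scale) held by each symbol group of other Ensembl RNA in the saline (blue) and treated (red) library; bars are exact 95% intervals for counting error, often smaller than the points, and the number of transcripts is in brackets. Clone names stand at 10.3% and 12.9%, Rn7sl1 at 1.11% and 1.10%, and the microRNA point of the treated library lies below that of the saline library.

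The reads were concentrated in few members. The 8 members with the most reads in a library held 63.8% of the class in saline and 62.3% in treated, and the top 20 held 81.8% and 82.7%. At the other end, the median member had 5 reads in the libraries together (quartiles 2 and 26), against 95 over all transcripts, and 1563 members had under 20. Reads in both libraries were found for 1341 members, 635 had none in treated and 185 none in saline. The treated library had fewer reads in all, which by itself leaves more transcripts with none. Of 16528 protein coding transcripts, 15780 had reads in saline and 14414 in treated.

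Among the structured RNAs with a known function, Rn7sl1, Rmrp and Terc had levels that were close in the libraries. Rn7sl1, the 7SL RNA, had 80831 and 43674 reads, a normalised count of 70107 in saline and 72134 in treated, and a fold of 0.04 (0.02 to 0.06). Rmrp, by its name the RNA of RNase MRP, had 44337 and 24676 reads, normalised counts of 38455 and 40756, and a fold of 0.08 (0.06 to 0.11). Terc, the telomerase RNA, had 323 and 181 reads and a fold of 0.09 (-0.18 to 0.36). These folds are small, and that of Rn7sl1 is -0.01 when the library totals are made equal. The RefSeq gene that Rmrp matched through a synonym is named Rpph1 but typed as RNase MRP RNA, and the name of the authors' table is kept here. The match therefore does not settle which RNA this member is. Rn5-8s, a ribosomal RNA gene, was lower in treated, with 33 reads in saline and 5 in treated and a fold of -1.68 (-3.51 to -0.43). By its name it is counted with the other symbols and not in the ribosomal RNA group.

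The clone names with the most reads had levels that were even or higher in the treated library. AC121204.3 had 115166 and 61976 reads, normalised counts of 99886 and 102363, and a fold of 0.04, or -0.02 with equal library totals. AABR07064724.4 had 87030 and 51903 reads, 75483 and 85726 normalised, and a fold of 0.18. AABR07070810.1 had 74939 and 66208 reads, 64997 and 109352 normalised, and a fold of 0.75 (0.74 to 0.77). The last of these went from 1.03% to 1.67% of all reads and so gained 0.640 percentage points, the most of any member. AABR07037548.1 gained 0.395 points, with 51105 and 43480 reads and a fold of 0.70, and AABR07031956.1 had 23558 and 18302 reads and a fold of 0.57. Of the 21 members with at least 10000 reads, 19 had clone names. Of these 21, 20 had over 1000 reads in each library, with folds from 0.04 to 0.75, and 11 of them lay between 0.25 and 0.45.

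Some clone names had near-identical counts. AABR07057442.2 had 66339 and 42652 reads and AABR07057443.2 had 66193 and 42616, folds of 0.29 for both. Among the 136 members with at least 500 reads, 5 sets with 13 members had counts that matched within 1% in both libraries. AABR07035218.1 and AABR07035224.1 had 3978 and 3977 reads in saline and 2936 and 2935 in treated. AABR07015081.1, AABR07015056.1, AABR07015067.1 and AABR07063462.1 had 814 or 815 in saline and 251 each in treated, and a fold of -0.77. A transcript of Snx3, a sorting nexin, matched AABR07068279.2, with 598 and 352 reads against 603 and 351. Reads that fit several near-identical copies can be shared among them or counted for each; how the authors counted them is not stated in any label or header, and the repeats held 74623 saline and 47581 treated reads.

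**Figure D2:**
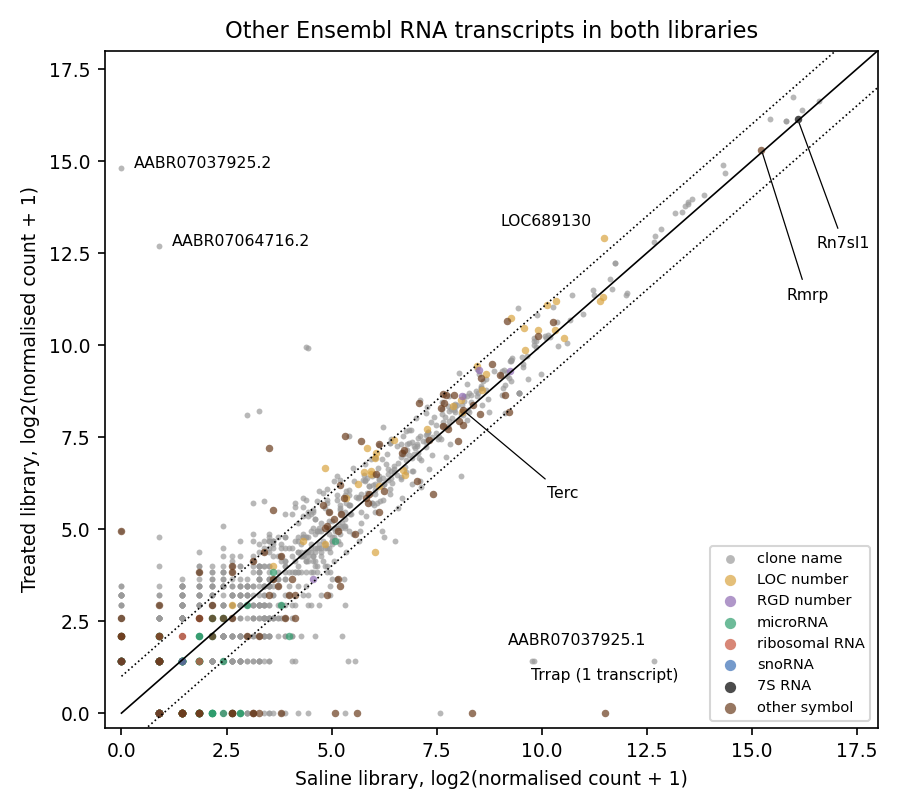
Level of each of the 2161 other Ensembl RNA transcripts in the saline (x) and treated (y) library, as log2 of the normalised count plus 1, coloured by symbol group; the solid line marks equal levels and the dotted lines a 2-fold difference. Rn7sl1, Rmrp and Terc lie at the line of equal levels, while AABR07037925.2, AABR07064716.2 and 1 Trrap transcript have many reads in 1 library and 0 or 1 in the other.

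A difference was counted by size alone: the log2 fold had to reach 1 in either direction, and the normalised count had to reach 1 in the saline or the treated library. By this rule 393 members were higher and 499 lower in treated, of 1911 that pass, against 15.8% higher and 23.7% lower over all transcripts; the members' shares were 20.6% and 26.1%. Most of these rest on few reads: 330 and 450 of them had under 20 reads in all, and the interval held 0 for 294 and 442. A single read in the treated library alone gives a fold of 1.41, while 1 in the saline library alone does not reach the minimum. The counts with more reads are therefore those to read, a minimum chosen after seeing the data. With at least 20 reads, 63 of 598 members (10.5%) were higher and 49 (8.19%) lower, against a background of 11.7% and 15.8%. With at least 100 reads, 25 of 321 (7.79%) were higher and 13 (4.05%) lower, against 9.35% and 11.1%. At both minimums the members' shares lay below the background, more so on the lower side, and this difference was not tested. The median fold of the members was 0.15 by the size rule, 0.19 with at least 20 reads and 0.25 with at least 100, where all transcripts had -0.07, -0.05 and -0.03. With 0 reads set to a floor of 3 reads, the first of these medians was 0.37. That floor is a normalised count of 4.95 in treated and 2.60 in saline. More members had 0 treated reads (635) than 0 saline reads (185), so the setting itself raises the median.

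Several of the largest differences sat in clones or genes with more than 1 listed transcript, where 1 transcript had its reads in saline and another in treated. Names that share a clone are separate genes here, as the 1198 AABR names had 1198 gene identifiers. A sum over a clone is therefore not the level of a gene. AABR07037925.1 had 7563 reads in saline and 1 in treated, while AABR07037925.2 had 0 and 17317. The second was at least 10992-fold higher in treated, counted against a floor of 3 reads in the saline library, and its gain of 0.437 percentage points was the second largest of the class. Summed, the pair had 7563 and 17318 reads and a fold of 2.12 (2.09 to 2.16). Of the 9 listed transcripts of AABR07030184, 2 had 1040 and 1008 reads in saline and 1 each in treated (AABR07030184.9 and AABR07030184.10). Another 2 went the other way, AABR07030184.11 with 24 and 590 reads and AABR07030184.1 with 23 and 600. The sum over all 9, 5314 and 3105 reads, had a fold of 0.15 (0.09 to 0.22), which is within 2-fold although the members went far in opposite directions.

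Transcripts of the same gene differed from each other in symbols that RefSeq types as protein coding. Trrap, a scaffold of histone acetyltransferase complexes, had 3 transcripts here, with 3367 and 0 reads, 671 and 970, and 231 and 246. Their sum of 4269 and 1216 had a fold of -0.88 (-0.98 to -0.79), while the second transcript alone had 1.46. Arid5b, a DNA-binding partner of a histone demethylase, had transcripts with 692 and 174, 12 and 89, and 1 and 4 reads, and a sum at -0.47 (-0.68 to -0.27). Syne1, which links the nucleus to the cytoskeleton, had 1 transcript with 376 and 0 reads and 1 with 244 and 243, none past 2-fold higher, and a sum at -0.52 (-0.73 to -0.32). Of the 38 members with at least 100 reads past 2-fold, 22 lay in 12 sets with more than 1 transcript, and in 7 of those sets, with 13 of the members, the sum was within 2-fold. How many of all 321 members with at least 100 reads lie in such sets was not counted, so no excess can be read from the 22. Summed by clone or symbol with at least 20 reads, 41 of 498 sums were higher and 33 lower, against a background of 7.81% and 10.9%. Whether the reads moved between transcripts of a gene, or between genes of a clone, in the cells or in their assignment was not tested.

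**Figure D3:**
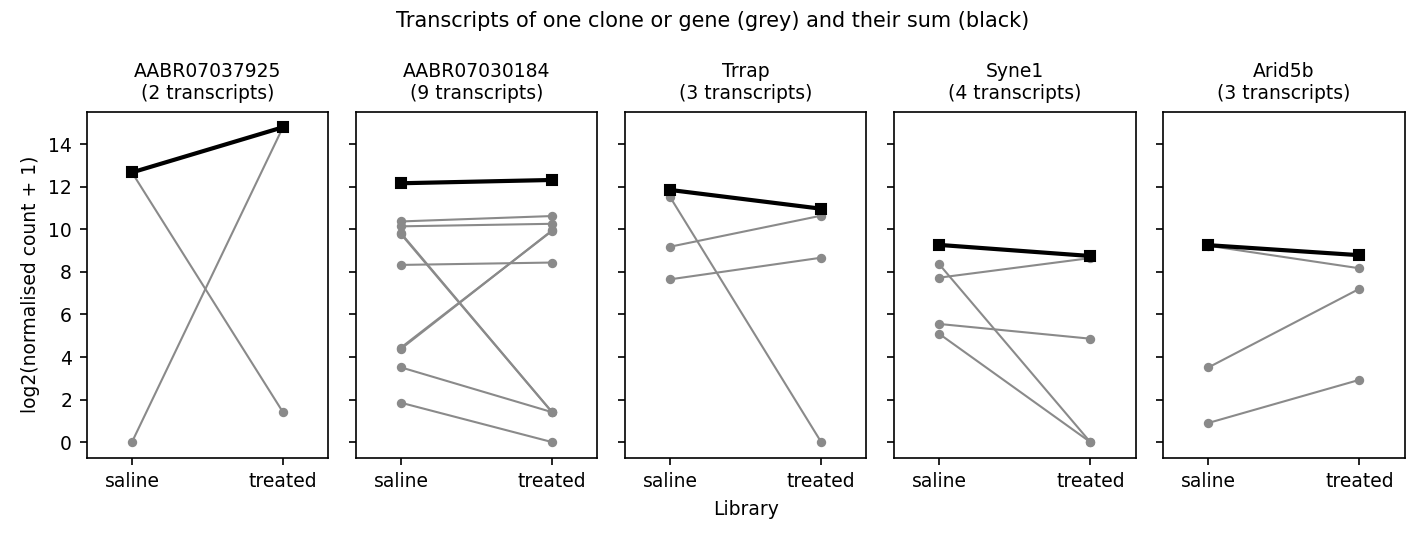
Level in the saline and treated library, as log2 of the normalised count plus 1, of each listed transcript (grey) of 2 clones and 3 genes, with their sum (black). The transcripts of a clone are listed as separate genes. Single transcripts cross from high to near 0 or the reverse, while the sums of AABR07030184, Trrap, Syne1 and Arid5b change by less than 2-fold; the sum of AABR07037925 is higher in treated by 2.12.

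A few members with large folds had no transcript of the same clone going the other way. AABR07064716.2 had 1 read in saline and 4020 in treated, which is a fold of 11.80 with a wide interval of 10.42 to 18.21. AABR07045373.2 had 10 and 178 reads and AABR07045373.3 had 8 and 165, both about 5 on the log2 scale (4.93 and 5.11). Rn60_10_0621.3, with 218 reads in saline and none in treated, was lower by at least 38.2-fold when set against the floor. Their kind of RNA is not given by the files.

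Differences with many reads in both libraries were more modest. LOC689130 had the most reads of the LOC numbers, 3293 and 4658 reads, normalised counts of 2856 and 7693, and a fold of 1.43 (1.36 to 1.49). LOC100360791 had 713 and 1035 reads and a fold of 1.47, and LOC100911361 had 32 and 61 and a fold of 1.82. LOC100361636 had 1 transcript higher, with 65 and 89 reads, and 1 lower, with 74 and 12. The 38 LOC transcripts together had 22734 and 17781 reads and a fold of the sum of 0.57 (0.55 to 0.60), and 29 had at least 100 reads. Of these 3 (10.3%) were past 2-fold higher and 0 lower, against 9.35% and 11.1% of all transcripts with that many reads, so the share of higher ones is near the background. Among clone names AABR07043421.1 had 796 and 1258 reads and a fold of 1.59, and AABR07066529.1 had 310 and 52 and a fold of -1.64. RefSeq gives the last as a synonym of Plin3, a coat protein of lipid droplets, and AABR07005779.1, with 641 and 173 reads and a fold of -0.96, as one of Prr14, a nuclear lamina protein. The 4 RGD numbers were not past 2-fold; RGD1562690 had 417 and 384 reads and 0.81, and RGD1563601 had 702 and 379.

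With 1 library per group a p-value rests on no spread between replicates, and a high one does not show an unchanged level. The authors' deposited table gives a p-value for each transcript. Its lowest among the members was 0.0544, for LOC689130, followed by AABR07070810.1 at 0.0600 and AABR07043421.1 at 0.0618. On the lower side the authors' deposited table had 0.107 for AABR07066529.1, 0.140 for the Arid5b transcript with the most reads and 0.150 for Itgb5, an integrin chain with 197 and 37 reads. No member had a p under 0.05 in the authors' deposited table, where 65 of all transcripts did, and its lowest adjusted p among members was 0.920. For AABR07037925.2, with the largest fold of the class, the authors' deposited table gives a p of 0.640. No member was in the authors' deposited table of selected transcripts. That table is named for mRNA alone, so the absence says nothing of this class.

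Other symbols of the class were genes and named pseudogenes. Of the 58 symbols, RefSeq types 30 as protein coding; their 73 transcripts held 12896 and 6351 reads, and none of the class's genes had a transcript in another class of the table. Smg1, a kinase of nonsense-mediated decay, had 2574 and 1578 reads over 6 transcripts and a fold of 0.22 (0.13 to 0.31). Top2b, a topoisomerase, had 237 and 360 reads over 5 transcripts and a fold of 1.53 (1.29 to 1.78). Itgb5 stood at -1.47. Rc3h1, which degrades immune messages, stood at 0.67 and Cdk8, a Mediator kinase, at 0.61. Cd93, a surface receptor of myeloid and endothelial cells, stood at -0.42.

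Pseudogenes named after a gene could be set beside that gene, although reads of the pair may be shared by sequence likeness. Names ending in ps numbered 23, with 2336 and 1409 reads, and 18 had a measured parent. Eif3i-ps1 had 1115 and 732 reads and a fold of 0.32 (0.19 to 0.46), and Eif3i, a translation initiation factor subunit, had 1215 and 744 and 0.22 (0.09 to 0.35). Akr1b1-ps2 had -0.31 where Akr1b1, aldose reductase, had -0.22; Uba2-ps1 had -0.06 where Uba2, a SUMO-activating subunit, also had -0.06. Arrb2-ps had -0.73 where Arrb2, the arrestin, had -0.61. Hmgb1-ps4 differed from its parent, with 276 and 243 reads and 0.74 (0.49 to 0.9995), where Hmgb1, a chromatin protein, had 462 and 250 and 0.04 (-0.18 to 0.27). Of the 5 with at least 100 reads these intervals overlapped for 4 pairs and not for Hmgb1-ps4. With fewer reads, Eif6-ps1 also stood apart, with 41 and 6 reads and -1.74 (-3.37 to -0.60), where Eif6, a ribosome maturation factor, had -0.40 (-0.56 to -0.24).

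The microRNA precursors had few reads, and their normalised sum was lower in treated. Together they had 288 reads in saline and 96 in treated, a fold of the sum of -0.65 (-1.004 to -0.32). Only Mir3064 and Mir142 had at least 20 reads, 85 of 109 had at most 3, and 53 had none in treated against 11 with none in saline. Over the class, 635 of 2161 members had none in treated and 185 none in saline, at the lower depth of the treated library. Mir3064, whose hairpin is printed above, had 38 and 15 reads; it lies within Ddx5, an RNA helicase, which had 3884 and 2790 reads and a fold of 0.45. Mir142, a precursor of blood cells, had 13 and 8 reads. Mir21 had 15 and 4, and Mir7a-1 had 8 and 4 where its host Hnrnpk, an RNA-binding protein, had a fold of 0.30. Mir27b had 17 and 2 reads, and its host Aopep, an aminopeptidase, 133 and 45, a fold of -0.63 (-1.16 to -0.14). A host's spliced message and the precursor within its intron are different RNAs, and reads of unspliced host RNA cannot be told apart from reads of the precursor. At these counts most single precursors cannot be said to differ.

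Neighbouring and same-seed precursors were grouped after seeing their values. Mir18a, Mir19a and Mir20a, which lie within 10 kb of each other and belong to a cluster made as 1 primary transcript, had 16 reads in saline and 0 in treated, which is at least 2.80-fold lower against the floor. Mir23b and Mir27b had 18 and 2 reads, with an interval of -5.39 to -0.18, and Mir23a, Mir24-2 and Mir27a had 8 and 1, with one of -7.54 to 0.83. By seed, UCACAGU, shared by miR-27a-3p and miR-27b-3p as printed above, came from loci with 20 and 2 reads. All of these are already in the neighbour groups, 17 and 2 of them from Mir27b. GAGGUAG, the seed of let-7 and miR-98, came from 5 loci with 8 and 1, and AAAGUGC, that of miR-20a-5p, miR-93-5p and miR-106b-5p, from 3 with 8 and 2. The reads of Mir20a are likewise in both its cluster and its seed group. These groups are among those with the most reads of 8 neighbour groups and of 9 shared seeds, and others did not go the same way: Mir3571 and Mir3582 had 0 and 2 reads, and the loci with the seed CUGAUCG 1 and 1.

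The 4 transcripts with snoRNA symbols do not stand for snoRNAs by their RefSeq match. RefSeq types their 3 symbols as microRNA genes: Snora58 carries the hairpin of miR-3068, with 3 and 2 reads. Box C/D and box H/ACA snoRNAs guide methylation and pseudouridylation of ribosomal RNA, and these libraries gave no usable level of them. Their protein partners and host genes were therefore looked at as lists, each by gene with its transcripts summed, against a background of 12.1% of symbols higher and 19.1% lower by the size rule. The median fold over all symbols was -0.07, and the share of symbols with a fold above 0 was not counted.

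The proteins of the signal recognition particle, which Rn7sl1 scaffolds, were listed together with those of the particle's receptor. All 7 measured had folds above 0, although the interval of Srp68 held 0, and Rn7sl1 was near 0. Of these, 2 were past 2-fold higher and 0 lower, with a median of 0.59: Srp54a, the GTPase that binds signal peptides, had 321 and 426 reads and 1.33, and Srp19 had 76 and 93 and 1.21. Srpra, the receptor subunit, had 1732 and 1039 reads and 0.19, and Srp68 0.10 (-0.07 to 0.26). The subunits of RNase P and MRP, the partners of Rmrp, had 0 higher and 3 lower of 10 and a median of -0.13. The 3 were Rpp38 with 37 and 5 reads and -1.84, Pop7 with 70 and 18 and -1.01, and Rpp25 with 2 and 0; Pop5 was at -0.02 and Pop4 at 0.56. These counts are small, and all 3 had under 100 reads.

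RNA polymerase III makes 7SL, RNase MRP, 5S and other short RNAs. Of its 23 subunits and factors 2 were higher and 1 lower, with a median of -0.42. Maf1, its repressor, had 209 and 29 reads and a fold of -1.90 (-2.53 to -1.36), while Polr3k and Polr3g, subunits, stood at 1.17 and 1.16. Polr3a, the largest subunit, had 683 and 223 reads and -0.68, and Gtf3c1, which binds the promoter within the gene, -0.80. The Ro and La list had 2 of 3 higher: Ssb, the La protein that binds the ends of new polymerase III transcripts, had 66 and 150 reads and 2.09 (1.69 to 2.55), and Trove2, the Ro protein, 95 and 115 and 1.20. Puf60, the third, was at -0.84.

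The microRNA processing list had 0 higher and 1 lower of 13, with a median of -0.42. The lower one was Tnrc6c, a silencing scaffold, with 290 and 64 reads and -1.24; Dicer1 had 344 and 94 reads and -0.94, and Ago2, which holds the mature strand, 2410 and 928 and -0.45. Prkra, a Dicer partner, was the only one above 0, at 0.93. The box C/D and H/ACA proteins had none past 2-fold of 9 and a median of -0.33, with Nop58 at 0.85, Rrp9 at -0.75, Nop56 at -0.52 and Fbl, the methyltransferase, at -0.33. Of the snoRNA hosts 13 of 26 were measured, with a median of 0.37 and 1 higher, Hspa8, a chaperone, with 5915 and 6549 reads and 1.08. Cct6a stood at 0.81, Rpsa at 0.16 and Eef2 at -0.26. The 7SK and P-TEFb list, proteins that hold back or release transcription elongation, had 0 higher and 1 lower of 9 and a median of -0.58, with Mepce, which caps 7SK RNA, at -1.28 and Larp7, which binds its end, at 0.87. Srsf2, a splicing factor, was at -0.60.

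**Figure D4:**
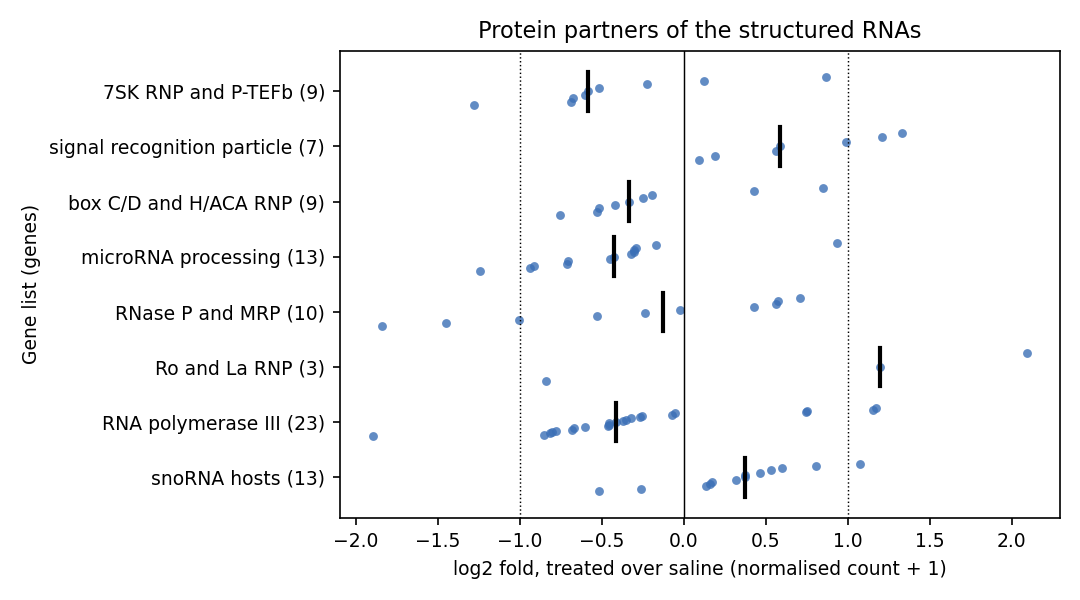
Log2 fold, treated over saline, of each gene (blue) in 8 lists of protein partners and host genes of the structured RNAs, with the list's median (black bar) and dotted lines at 2-fold; the number of genes is in brackets. The median of the signal recognition particle list is 0.59 and that of the 7SK and P-TEFb list -0.58; no gene of the box C/D and H/ACA list passes 2-fold.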

How the data were processed

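Strand-specific TruSeq libraries were made from total RNA extracted with Tripure, per the labels' protocols. Tools listed in the submitters' processing notes are STAR 2.5, DESeq 1.22.1, Cuffnorm and FastQC, with no genome build or counting rule. For each transcript the authors deposited a log2 value. After undoing the log2 and taking 1 away, every value (100%, tolerance 1e-06 reads) was a multiple of a library's smallest value, which gave size factors of 1.15 (saline) and 0.605 (treated) and the read counts. The authors' deposited p-values are used as listed. A further 4 columns repeat these values and were not used. No count model was run on 1 library per group. Intervals are exact Clopper-Pearson intervals; reads are not independent molecules. Named transcripts follow a rule: the 3 highest levels and largest differences per symbol group, the 6 largest differences each way with at least 100 reads, the 3 lowest deposited p-values each way, and 2 partner genes per criterion and list; further ones named were chosen after their values were seen. Members, lists and rules were chosen with earlier results of these data known. Transcript length is not given by the files, so levels are not compared between genes. Calculations were tested on simulated data and used Matplotlib 3.10.9, SciPy 1.17.1, pandas 2.3.3, NumPy 2.4.6 and Python 3.11.15. Alternatives were pseudocounts, filters, scalings, summing and other denominators.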

Additional observations from a re-analysis of the deposited data

How the results depend on the processing

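The class's read share was higher in treated under every alternative run. It was 15.0% and 18.8% of protein coding reads, 11.2% and 13.9% without the member with the most reads, 12.6% and 14.9% without AABR07037925.2, and 11.7% and 14.2% with matching counts taken once. Clone names alone had 12.3% and 15.8%, 8.89% and 11.5%, 10.3% and 12.5%, and 9.41% and 11.8%. The member with the most reads, AC121204.3, held 1.58% of saline and 1.56% of treated reads, so leaving it out could not lower the gain. AABR07070810.1, which gained the most, was not left out in any alternative. The counts past 2-fold, 393 higher and 499 lower, rest on the filter: 93 and 102 with a pseudocount of 5, 165 and 154 with a normalised count of at least 5, and 39 and 14 with at least 50. With minimums chosen after seeing the data they were 63 and 49 (20 reads), 25 and 13 (100 reads), and 41 and 33 summed by clone. The higher part of the calls was 44.1%, and 73.6% with at least 50. The median fold of 0.15 was 0.27 with at least 50, 0.25 with at least 100 reads and -0.044 with no filter, where members with 1 saline read enter. Equal totals shift every fold by -0.05 and the median of ratios by -0.01. These shifts are too small, and pseudocounts are unable, to change the sign of a fold past 2-fold. Among the 76 named folds, small ones did change sign with equal totals. Rn7sl1, AC121204.3 and RGD1563601 went from 0.04 each to -0.01, -0.02 and -0.01. Among partner lists, the 3 lower genes of RNase P and MRP became 1 with a pseudocount of 5 or a normalised count of at least 50, and the 2 lower mast cell markers became 1 with the latter. No paired analysis was possible because each group had 1 library, so no replicate could be left out either. Depth limits most members: 1563 of 2161 had under 20 reads.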
